A study of Mus musculus with 12 samples.

Results

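Claudins are membrane proteins that line up between neighbouring epithelial cells and form the strands of the tight junction. The 9 claudins described here are those of intestinal epithelium (Cldn1, Cldn2, Cldn3, Cldn4, Cldn7, Cldn8, Cldn12, Cldn15 and Cldn23), found by the accession of each array probe, and they are 9 of 23240 genes tested. Some claudins leave charge-selective pores between cells. Cldn2 forms a pore for sodium and water and Cldn15 a pore for sodium, and both are taken here as pore-forming. Cldn1, Cldn3, Cldn4 and Cldn8 are taken as sealing claudins, which tighten the junction, and Cldn7, Cldn12 and Cldn23 as claudins whose role is mixed or less settled. In the mouse colon Cldn2 is known as a claudin of the crypt, and Cldn4 and Cldn23 are known from the surface.

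Colon RNA of C57BL/6J males was hybridised to 12 single-dye Agilent arrays, in 6 groups of 2. The groups were ATF6aKO given DSS, ATF6aKO untreated (UT), ATF6bKO given DSS, ATF6bKO untreated, WT titled DSS and WT titled UT. DSS, dextran sulfate sodium, is a polymer that injures the colonic epithelium, and it was given at 3% in drinking water for 3 days. ATF6aKO mice lack Atf6 and ATF6bKO mice lack Atf6b, related transcription factors held in the membrane of the endoplasmic reticulum until unfolded protein accumulates. No label names the cell type in which the genes were deleted. Nothing in the labels ties the 2 samples of a group to different animals, so each p-value reflects only how these samples vary, which could be technical. For the 4 WT samples, the titles and the treatment fields name opposite treatments. WT groups follow the titles here. The WT differences of the claudins, and the knockout responses set against them, are given under both readings. Splits of knockout against WT by treatment, and WT counts of gene lists, are given by the titles only.

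A level in this text is the log2 signal of a probe relative to the 75th percentile of its array, and a difference is between levels of 1 probe. Of the 45018 spots of an array, 43379 were not controls, and 66.0% to 76.9% of these were well above background, with 0 saturated spots. The number of arrays limits the precision. Slide here means arrays grouped by the scan date in their file headers. Each genotype had a slide of its own in this sense, so genotype and slide cannot be told apart. DSS and UT arrays of a genotype shared a slide. The headers also name 1 version of the array design for all WT arrays and another for all knockout arrays. The versions hold the same probes, but the accession of 5471 probes differs. Knockout against WT cannot be told apart from the design version either. The targeted genes fit the genotype labels: Atf6 differed by -3.92 between ATF6aKO and WT (SE 0.12, adjusted p = 4.52e-06), and Atf6b by -6.09 between ATF6bKO and WT (SE 0.64, adjusted p = 0.000227). The epithelial genes Epcam, Cdh1, Cdh17, Krt8, Krt18, Krt19, Vil1 and Lgals4 were well above background on every array. In tissue RNA, fewer cells of a type and less RNA per cell cannot be told apart.

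The promoters of Cldn2 and Cldn15, which fell with DSS in the knockouts, and of Cldn4, which rose, are shown first because the results turn on these genes. Each runs from 250 bases before to 50 bases after a start site in RefSeq, build GRCm38.p6, on the strand of the gene. Cldn2 lies at chrX:139800558-139800857 (plus strand), Cldn15 at chr5:136967619-136967918 (plus strand) and Cldn4 at chr5:134946885-134947184 (minus strand). Capitals mark TTTAT, the core bound by CDX factors, TGANTCA, the AP-1 core, and TATAAA, the TATA box.
Cldn2: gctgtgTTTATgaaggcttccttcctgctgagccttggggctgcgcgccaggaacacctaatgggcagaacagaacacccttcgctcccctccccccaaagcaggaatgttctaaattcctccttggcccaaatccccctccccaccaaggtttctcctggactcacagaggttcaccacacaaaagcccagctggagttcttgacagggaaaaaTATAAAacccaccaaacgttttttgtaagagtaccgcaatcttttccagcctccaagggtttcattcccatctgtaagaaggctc
Cldn15: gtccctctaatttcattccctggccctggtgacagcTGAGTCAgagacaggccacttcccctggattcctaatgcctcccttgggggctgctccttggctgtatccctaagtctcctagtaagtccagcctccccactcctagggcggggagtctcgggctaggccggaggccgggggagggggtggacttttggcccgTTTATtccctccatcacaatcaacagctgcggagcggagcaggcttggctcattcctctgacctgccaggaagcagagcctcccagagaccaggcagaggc
Cldn4: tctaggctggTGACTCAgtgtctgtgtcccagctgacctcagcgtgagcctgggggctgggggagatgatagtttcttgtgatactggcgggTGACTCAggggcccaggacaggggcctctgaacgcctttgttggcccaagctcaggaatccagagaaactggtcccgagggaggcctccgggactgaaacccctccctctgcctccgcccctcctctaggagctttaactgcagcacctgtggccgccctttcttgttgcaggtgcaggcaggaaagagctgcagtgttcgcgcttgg

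The Cldn2 promoter held the only TATAAA among the 7 members with a RefSeq promoter, 35 bases before the start, a run found in 13.6% of 32851 RefSeq promoters of this length on either strand, and this match overlaps a TTTAT match on the other strand. TTTAT was found in Cldn2 and Cldn15 and in 13143 of the 32851 promoters. TGANTCA was found once in Cldn15 and at 2 places in Cldn4, and in 7.81% of all promoters. TTCNNNGAA, the STAT core, was found in Cldn7 and Cldn12 and in 8.3% of all promoters. CTTTGA, the only form of a TCF core searched (16.0% of all promoters), was found in 0 of the 7 members. AACNNGTT (a GRHL core, 4.2%) and the ER stress element bound by ATF6 (CCAAT, then CCACG after 9 other bases, 0.119%) were also found in 0 of the 7. These are matches of letters on both strands in a short window and not binding sites. Of the 9 members, Cldn8 and Cldn23 were unmatched. The GC content was 51.3% for Cldn2, 61.0% for Cldn15 and 61.0% for Cldn4, against a median of 52.7% for all promoters. Cldn3 and Cldn4 are next to each other on chromosome 5.

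The first question was what DSS did to the claudins of knockout colon, where the labels do not conflict. Over the 8 knockout arrays both pore-forming claudins fell, Cldn2 by 47.2-fold and Cldn15 by 3.87-fold. Of the 4 sealing claudins, Cldn8 rose 2.55-fold and Cldn4 rose 2.05-fold, and Cldn1 and Cldn3 did not pass the test. The 3 claudins of mixed role did not pass it either. These 4 of 9 called members stand beside 29.1% of all genes called in this comparison, with 2 members higher (13.3% of all genes) and 2 lower (15.8%). With normexp, 58.7% of all calls were higher, against 45.6% here. The median difference was 0.11 over the members and -0.01 over all genes.

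**Figure D1:**
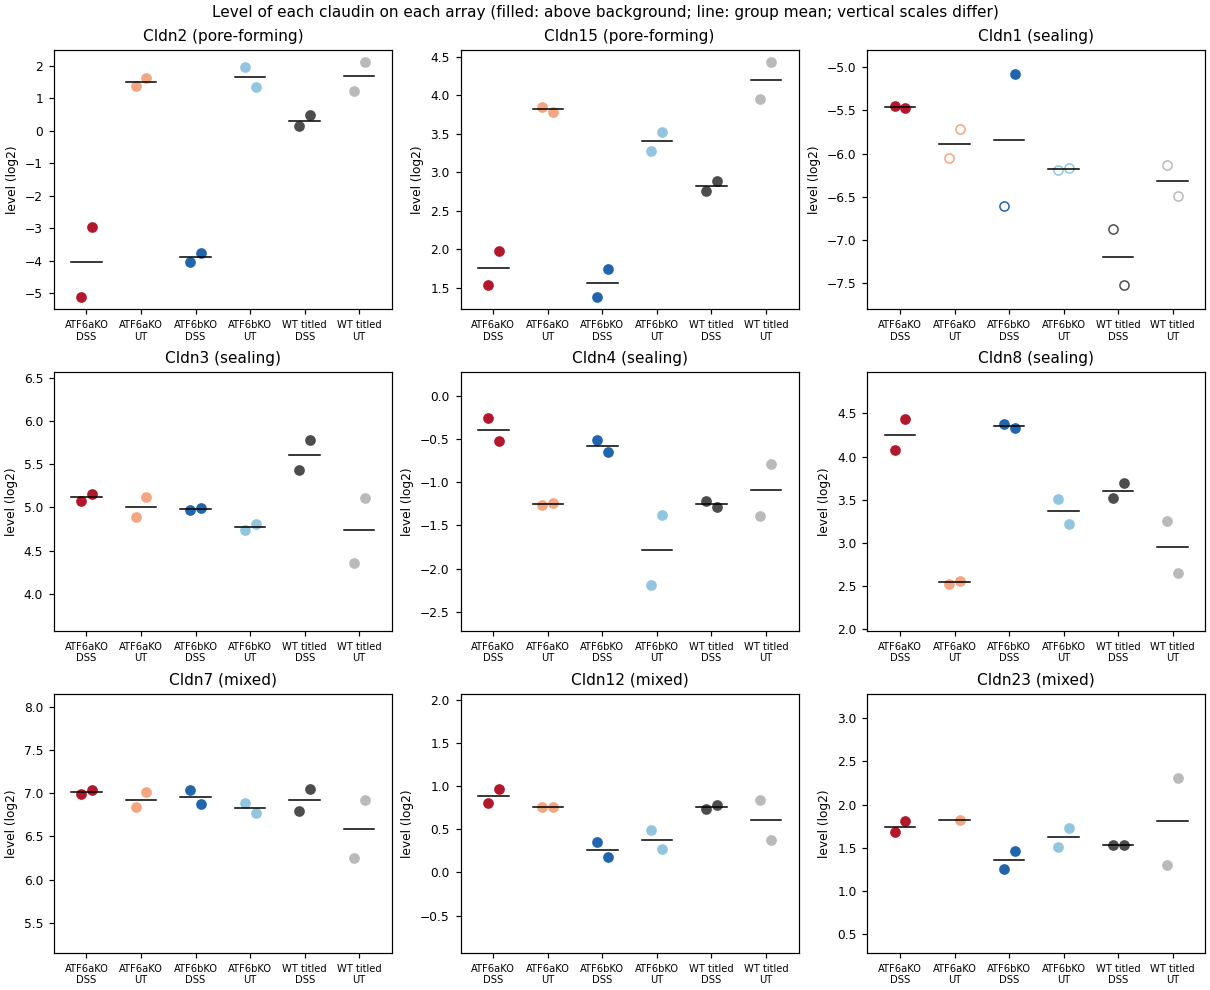
Level of each claudin (vertical axis, log2 relative to the array's 75th percentile) on each of 12 arrays, by group (horizontal axis); filled points are well above background, open points are not, and lines are group means. Cldn2 lies between -5.14 and -2.96 on the 4 knockout DSS arrays and between 1.35 and 1.98 on the 4 knockout UT arrays, and Cldn1 is above background on 3 arrays.

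Cldn2 levels were -5.14 and -2.96 on the ATF6aKO DSS arrays, against 1.37 and 1.64 on the ATF6aKO UT arrays. They were -4.05 and -3.76 on the ATF6bKO DSS arrays, against 1.98 and 1.35 on the ATF6bKO UT arrays. All 4 DSS arrays lay below all 4 UT arrays, by more than the spread within any group, and all 8 values were well above background. The difference was -5.55 in ATF6aKO (SE 0.61, limma adjusted p = 0.00436, a 46.9-fold fall) and -5.57 in ATF6bKO (SE 0.61, adjusted p = 0.00180, a 47.4-fold fall). Over both knockouts it was -5.56 (SE 0.44, adjusted p = 0.00102). These 3 calls were kept in every alternative, with the ATF6aKO difference between -6.64 and -4.06 and the ATF6bKO difference between -5.88 and -3.71. The values nearest 0 came from normexp background correction, which adds an offset to every signal.

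Cldn15, the other pore claudin, had levels of 1.53 and 1.97 on the ATF6aKO DSS arrays, against 3.85 and 3.78 on the ATF6aKO UT arrays. On the ATF6bKO arrays it had 1.37 and 1.74 with DSS, against 3.28 and 3.52 without. No DSS array reached the lowest UT array. The difference was -2.06 in ATF6aKO (SE 0.23, adjusted p = 0.00471, 4.18-fold) and -1.84 in ATF6bKO (SE 0.23, adjusted p = 0.00258, 3.59-fold). Over both knockouts it was -1.95 (SE 0.14, adjusted p = 0.00093). As for Cldn2, these calls were kept in every alternative.

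Cldn8, a sealing claudin known for limiting sodium leak in the distal colon, went the other way. Its levels were 4.07 and 4.43 on the ATF6aKO DSS arrays, against 2.53 and 2.56 on the ATF6aKO UT arrays. On the ATF6bKO arrays they were 4.38 and 4.34 with DSS, against 3.51 and 3.22 without. The 4 DSS arrays were the highest of the 8. The rise was 1.71 in ATF6aKO (SE 0.23, adjusted p = 0.00879, 3.27-fold), 0.99 in ATF6bKO (SE 0.23, adjusted p = 0.0248, 1.99-fold) and 1.35 over both knockouts (SE 0.18, adjusted p = 0.00306). The pooled call was kept in every alternative. The ATF6aKO call was lost without ATF6aKO UT replicate 1 (adjusted p = 0.0550) or replicate 2 (adjusted p = 0.0515). The ATF6bKO call was lost in 6 of 22 alternatives, among them without each of its own arrays: DSS replicate 1 (adjusted p = 0.105), DSS replicate 2 (0.109), UT replicate 1 (0.0611) and UT replicate 2 (0.113).

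Cldn4, a sealing claudin abundant at the luminal surface, had levels of -0.26 and -0.53 on the ATF6aKO DSS arrays, against -1.27 and -1.24 on the ATF6aKO UT arrays. On the ATF6bKO arrays it had -0.51 and -0.65 with DSS, against -2.19 and -1.38 without. Again the 4 DSS arrays were above the 4 UT arrays. The difference was 0.86 in ATF6aKO (SE 0.29, adjusted p = 0.110) and did not pass the test. In ATF6bKO it was 1.20 (SE 0.29, adjusted p = 0.0276, 2.30-fold), and this call was lost without DSS replicate 1 (adjusted p = 0.120), DSS replicate 2 (0.103) or UT replicate 1 (0.142) of that genotype. Over both knockouts it was 1.03 (SE 0.19, adjusted p = 0.00894), with adjusted p between 0.00106 and 0.0340 over the alternatives.

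Cldn1 and Cldn3 are sealing claudins that did not pass the test over both knockouts. Cldn3 levels were 5.08 and 5.16 on the ATF6aKO DSS arrays, against 4.88 and 5.12 on the ATF6aKO UT arrays, and 4.97 and 4.998 on the ATF6bKO DSS arrays, against 4.74 and 4.81 on the ATF6bKO UT arrays. The pooled Cldn3 difference was 0.16 (95% interval -0.04 to 0.37, adjusted p = 0.202). Cldn1 was at the edge of detection. Its levels were -5.44 and -5.48 on the ATF6aKO DSS arrays, both above background, against -6.06 and -5.72 on the ATF6aKO UT arrays, both not well above it. They were -6.60 and -5.08 on the ATF6bKO DSS arrays, of which the second was above background, against -6.19 and -6.17 on the ATF6bKO UT arrays, which were not. The pooled Cldn1 difference was 0.38 (SE 0.30, adjusted p = 0.376), and without ATF6bKO DSS replicate 1 it was 0.70 with adjusted p = 0.0405.

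The remaining claudins moved little. Cldn7, which is spread along the basolateral membrane of intestinal cells, had levels between 6.25 and 7.05 over all 12 arrays and a pooled knockout difference of 0.11 (95% interval -0.10 to 0.32, adjusted p = 0.388). Cldn12 had levels between 0.17 and 0.96 and a pooled difference of 0.01 (95% interval -0.24 to 0.25, adjusted p = 0.974). Cldn23, known from surface cells, had levels between 1.25 and 2.31, with 1 ATF6aKO UT array left out as an outlier spot, and a pooled difference of -0.19 (95% interval -0.48 to 0.10, adjusted p = 0.269). A test that misses the threshold does not show that these genes were unchanged.

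By genotype, 3 of 9 members were called in ATF6aKO, 1 higher and 2 lower, where 6.33% of all genes were called (2.88% higher and 3.45% lower). In ATF6bKO 4 of 9 were called, 2 higher and 2 lower, where 12.9% of all genes were called (5.71% higher and 7.18% lower). The arrays of the DSS and UT groups did not overlap for 7 of 9 members in ATF6aKO and for 6 of 9 in ATF6bKO, as they did not for 67.2% and 63.5% of all genes. Over both knockouts they did not overlap for 4 of 9 members, against 26.3% of all genes. The DSS response of ATF6aKO minus that of ATF6bKO was called for 0 members and for 0% of all genes, with 0 members at an unadjusted p under 0.05. For Cldn2 this difference was 0.02 (95% interval -1.94 to 1.97, adjusted p = 0.999), and for Cldn8 it was 0.72 (95% interval -0.02 to 1.46, adjusted p = 0.638).

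**Figure D2:**
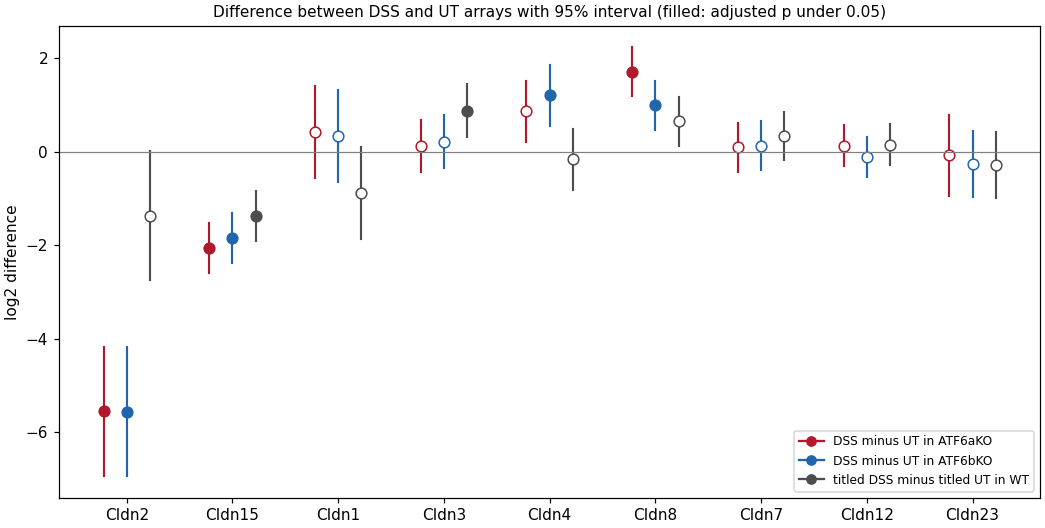
Difference in level between DSS and UT arrays (vertical axis, log2) of each claudin (horizontal axis) in ATF6aKO, in ATF6bKO and, by the titles, in WT; points are differences, bars are 95% intervals and filled points have adjusted p under 0.05. Cldn2 lies at -5.55 in ATF6aKO, at -5.57 in ATF6bKO and at -1.37 in WT.

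In WT the titled DSS group had less Cldn15 and more Cldn3 than the titled UT group, and 2 of 9 members were called where 31.7% of all genes were (14.7% higher and 17% lower). Cldn15 had levels of 2.75 and 2.89 on the titled DSS arrays, against 3.95 and 4.44 on the titled UT arrays, a difference of -1.38 (SE 0.23, adjusted p = 0.00484, 2.60-fold). Cldn3 had 5.43 and 5.78 on the titled DSS arrays, against 4.36 and 5.11 on the titled UT arrays, a difference of 0.87 (SE 0.25, adjusted p = 0.0283, 1.83-fold). The Cldn15 call was lost where only the WT arrays were fitted (adjusted p = 0.0643). The Cldn3 call was lost in 6 of 21 alternatives, among them without WT DSS replicate 1 (adjusted p = 0.0604), WT DSS replicate 2 (0.155) or WT UT replicate 1 (0.0916). Cldn2 had 0.14 and 0.48 on the titled DSS arrays, against 1.24 and 2.13 on the titled UT arrays, which did not overlap. Its difference of -1.37 did not pass the test (SE 0.61, adjusted p = 0.116), but did without ATF6aKO DSS replicate 1 or 2, whose spread enters the shared error (adjusted p = 0.0252 for each).

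Cldn8 had 3.52 and 3.69 on the WT titled DSS arrays, against 3.25 and 2.65 on the titled UT arrays, and its difference of 0.65 did not pass the test (SE 0.23, adjusted p = 0.0587). Without WT UT replicate 1 it was 0.95 with adjusted p = 0.0175. Cldn4 had -1.22 and -1.28 on the titled DSS arrays, between the 2 titled UT arrays at -1.39 and -0.79. Cldn1 was not well above background on any WT array, at -6.88 and -7.52 with the DSS title and at -6.14 and -6.49 with the UT title. The arrays did not overlap for 5 of 9 members, against 64.3% of all genes. With either ATF6bKO DSS array left out, Cldn1 passed the test (adjusted p = 0.0368 for each), as did Cldn7 without WT UT replicate 2 (0.67, adjusted p = 0.0157) and Cldn23 without WT UT replicate 1 (-0.78, adjusted p = 0.0247). With the treatment fields in place of the titles, each WT difference has the same size and the opposite sign.

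Cldn2 fell further in the knockouts than between the WT groups, under both readings. The ATF6aKO response minus the titled WT difference was -4.18 (SE 0.86, adjusted p = 0.0301), and with the WT groups exchanged it was -6.92 (adjusted p = 0.00187). The ATF6bKO response minus the titled WT difference was -4.20 (SE 0.86, adjusted p = 0.0202), and -6.94 with the WT groups exchanged (adjusted p = 0.00137). Cldn2 was the 1 member called in each of these comparisons by the titles, where 7.65% of all genes were called for ATF6aKO (3.57% higher and 4.07% lower) and 14.6% for ATF6bKO (6.29% higher and 8.34% lower). By the titles, the ATF6aKO call was lost in 10 of 21 alternatives. These included leaving out either WT DSS array (adjusted p = 0.0709 and 0.103), WT UT replicate 1 (0.0555), either ATF6aKO UT array (0.0757 and 0.107), ATF6aKO DSS replicate 1 (-3.10, adjusted p = 0.0765) and either ATF6bKO DSS array (0.0523 for each). The ATF6bKO call was lost in 3 of 21, without ATF6bKO DSS replicate 1 (0.0555) or replicate 2 (0.0585) or without WT DSS replicate 2 (0.0678).

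No other member was called in these comparisons by the titles. The difference of responses nearest the threshold was that of Cldn4, at 1.36 for ATF6bKO against WT (SE 0.41, adjusted p = 0.0545), followed by Cldn8 at 1.06 for ATF6aKO against WT (SE 0.33, adjusted p = 0.0751). Both passed without 1 array: Cldn4 without WT UT replicate 1 (1.67, adjusted p = 0.0384) or ATF6bKO UT replicate 2 (1.77, adjusted p = 0.0372), and Cldn8 without WT UT replicate 2 (1.36, adjusted p = 0.00815). Without WT UT replicate 2, Cldn3 also passed, at -1.13 for ATF6aKO (adjusted p = 0.0113) and -1.04 for ATF6bKO (adjusted p = 0.0134), and without ATF6bKO DSS replicate 1, Cldn1 passed for ATF6bKO (1.99, adjusted p = 0.0359). Cldn15 differed by -0.69 for ATF6aKO (95% interval -1.44 to 0.07) and by -0.47 for ATF6bKO (95% interval -1.22 to 0.29). With the WT groups exchanged, Cldn15 and Cldn8 were called as well, Cldn15 at -3.44 for ATF6aKO (adjusted p = 0.000974) and -3.22 for ATF6bKO (adjusted p = 0.000785), and Cldn8 at 2.36 (adjusted p = 0.00258) and 1.65 (adjusted p = 0.00792). Cldn3 was then called for ATF6bKO (1.08, adjusted p = 0.0471). The 3 genotypes had separate slides by scan date, and WT had another design version. A difference in response between genotypes thus cannot be told apart from an effect of slide or design version on responses.

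To set pore-forming against sealing claudins, each claudin was expressed as the departure from its own mean over the 12 arrays, since levels of different probes are not comparable. The pore-forming mean minus the sealing mean was -3.56 and -2.29 on the ATF6aKO DSS arrays, against 1.70 and 1.64 on the ATF6aKO UT arrays. It was -2.79 and -2.80 on the ATF6bKO DSS arrays, against 1.76 and 1.42 on the ATF6bKO UT arrays. The WT titled DSS arrays had 0.34 and 0.62, against 1.68 and 2.26 for titled UT. The 4 knockout DSS arrays were thus the only arrays with a negative value of this index. Its 0 is set by the means over the 12 arrays, so the sign does not compare amounts of the 2 classes.

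The pore-forming part carried most of this. Its mean departure was -2.38 ± 0.92 in ATF6aKO DSS, against 1.43 ± 0.07 in ATF6aKO UT (SD, n = 2 each), and -2.40 ± 0.23 in ATF6bKO DSS, against 1.30 ± 0.13 in ATF6bKO UT. The sealing mean departure was 0.54 ± 0.03 in ATF6aKO DSS, against -0.24 ± 0.11 in ATF6aKO UT, and 0.39 ± 0.24 in ATF6bKO DSS, against -0.29 ± 0.11 in ATF6bKO UT. In WT the sealing mean was -0.15 ± 0.03 with the DSS title, against -0.26 ± 0.07 with the UT title. The DSS minus UT change of the index was -4.59 in ATF6aKO and -4.39 in ATF6bKO, and -1.49 between the titled WT groups. Without Cldn2 it was -2.84 in ATF6aKO and -2.53 in ATF6bKO. The direction within a genotype is a description, since the members were chosen with these results known.

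**Figure D3:**
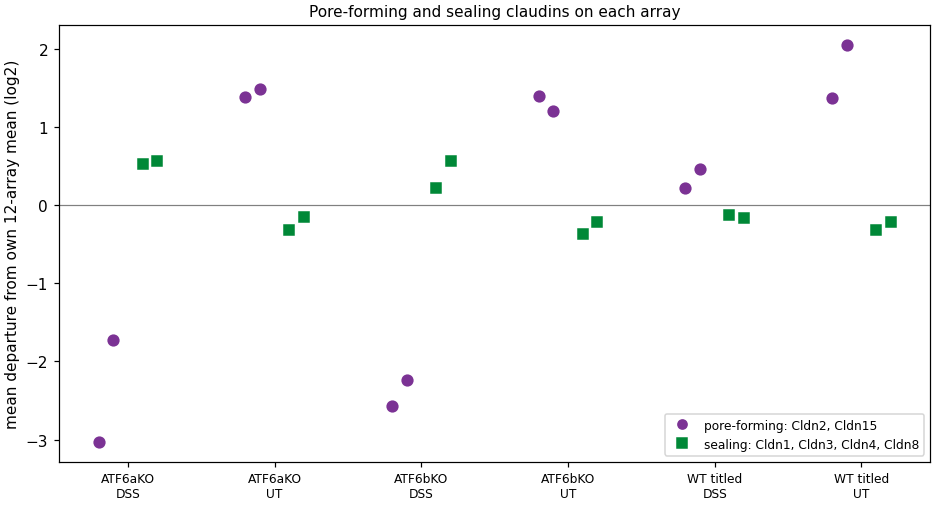
Mean departure from the 12-array mean (vertical axis, log2) of the pore-forming claudins (circles) and the sealing claudins (squares) on each array, by group (horizontal axis). On the 4 knockout DSS arrays the circles lie below the squares, and on the other arrays above them.

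Across the 12 arrays Cldn2 and Cldn15 had Pearson's r = 0.94, and Cldn8 had r = -0.85 with Cldn2 and -0.92 with Cldn15. These values describe 12 arrays that fall into DSS and UT groups, which all genes share. The genes whose levels were most like that of Cldn2 over 12 samples were Slc1a5, a transporter of neutral amino acids (r = 0.983), Cabcoco1 (r = 0.982) and Efna4, an ephrin ligand (r = 0.978). For Cldn15 they were Nox1, the NADPH oxidase of the colon (r = 0.982), Fzd9, a Wnt receptor (r = 0.977), and Ugt2b35 (r = 0.969). For Cldn8 they were Adamts5, a matrix protease (r = 0.944), Tmem158 (r = 0.929) and Rbms3 (r = 0.919), and for Cldn4 they were Gmppb (r = 0.930), Htr3a (r = 0.905) and C130050O18Rik (r = 0.904). For the other members the highest r was 0.957 for Cldn3 (Tmem38b), 0.950 for Cldn7 (Scamp2), 0.915 for Cldn1 (Serpinb8), 0.911 for Cldn23 (Strn4, 11 samples) and 0.902 for Cldn12 (Stt3b).

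The order of the groups differed between the pore-forming and sealing claudins. Cldn2 was highest in WT titled UT (1.68 ± 0.63), ATF6bKO UT (1.66 ± 0.45) and ATF6aKO UT (1.50 ± 0.19), which overlapped. WT titled DSS followed (0.31 ± 0.24), and then ATF6bKO DSS (-3.90 ± 0.21) and ATF6aKO DSS (-4.05 ± 1.53), which overlapped each other (SD, n = 2 each). Cldn15 ran from WT titled UT (4.19 ± 0.34) through ATF6aKO UT (3.82 ± 0.05), ATF6bKO UT (3.40 ± 0.18) and WT titled DSS (2.82 ± 0.09) to ATF6aKO DSS (1.75 ± 0.31) and ATF6bKO DSS (1.56 ± 0.26), and the last pair alone overlapped. Cldn8 was highest in ATF6bKO DSS (4.36 ± 0.03) and ATF6aKO DSS (4.25 ± 0.25), which overlapped, and lowest in ATF6aKO UT (2.54 ± 0.03). Cldn3 was highest in WT titled DSS (5.61 ± 0.25).

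Over both treatments, Cldn2 and Cldn15 were lower in each knockout than in WT, but for Cldn2 this came from the DSS groups. The averaged Cldn2 difference was -2.27 for ATF6aKO (SE 0.43, adjusted p = 0.00297) and -2.12 for ATF6bKO (SE 0.43, adjusted p = 0.00398). Among UT groups alone it was -0.18 for ATF6aKO (adjusted p = 0.825) and -0.02 for ATF6bKO (adjusted p = 0.983), and among DSS groups alone -4.36 (adjusted p = 0.00267) and -4.22 (adjusted p = 0.00275). With an additive treatment term both averaged Cldn2 calls were lost (adjusted p = 0.0649 and 0.0777). These splits were added after the data were seen, use the titles and were not run with the WT groups exchanged. The averaged Cldn15 difference was -0.72 for ATF6aKO (SE 0.17, adjusted p = 0.00721; UT groups -0.38, adjusted p = 0.212) and -1.03 for ATF6bKO (SE 0.17, adjusted p = 0.00138; UT groups -0.79, adjusted p = 0.0227). The Cldn15 means of ATF6aKO UT (3.82) and ATF6bKO UT (3.40) lay below WT titled UT (4.19) but above WT titled DSS (2.82). The sign of the Cldn15 UT differences thus depends on the reading of the WT labels. In the authors' value table the averaged Cldn15 differences were -0.06 (adjusted p = 0.767) and -0.38 (adjusted p = 0.0858).

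Among sealing claudins, Cldn1 was at least 1.39-fold higher in ATF6aKO than in WT (1.08, SE 0.31, adjusted p = 0.0178). Cldn1 passed the filter only through the ATF6aKO DSS group, where it was highest, so this call is not independent support for a difference. The bound sets the mean of all ATF6aKO arrays, of which 2 were above background, against the lowest signals above background in WT. By the titles, Cldn1 differed by 0.42 among UT groups alone (adjusted p = 0.441), with no array above background, and by 1.74 among DSS groups alone (adjusted p = 0.0231). Its WT means were -6.31 with the UT title and -7.20 with the DSS title, so which split is larger depends on the reading. The Cldn1 call was also lost without ATF6aKO UT replicate 2 (adjusted p = 0.0589) or WT DSS replicate 2 (0.0638). Cldn8 was higher in ATF6bKO than in WT by 0.58 (SE 0.16, adjusted p = 0.0166), and this call was lost without ATF6bKO UT replicate 1 (0.0539) or WT DSS replicate 1 (0.0546), and with an additive treatment term (0.0576). By the titles, Cldn8 differed by 0.41 among UT groups alone (adjusted p = 0.170) and by 0.75 among DSS groups alone (adjusted p = 0.0414). Its ATF6bKO UT mean (3.37) lay above WT titled UT (2.95) but below WT titled DSS (3.61), so the sign of the UT split depends on the reading. In each knockout 3 of 9 members were called against WT, 1 higher and 2 lower. Of all genes, 50.4% were called for ATF6aKO (21.6% higher and 28.8% lower) and 50.6% for ATF6bKO (24.4% higher and 26.2% lower), so the members' share was below the background. Genotype cannot be told apart from slide or design version in these comparisons.

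Between the knockouts 0 of 9 members were called by limma, where 5.38% of all genes were (1.17% higher and 4.21% lower), and 2 members had an unadjusted p under 0.05. These were Cldn12, with levels of 0.80 and 0.96 (DSS) and 0.75 and 0.76 (UT) in ATF6aKO, against 0.35 and 0.17 (DSS) and 0.49 and 0.27 (UT) in ATF6bKO, and Cldn8. The Cldn12 arrays did not overlap, and the difference was 0.50 (SE 0.13, adjusted p = 0.0690). It passed without WT UT replicate 1 or 2, which enter the shared error (adjusted p = 0.0195 for each). The Cldn8 difference was -0.46 (SE 0.16, adjusted p = 0.130), and passed without the same WT arrays (0.0399 for each).

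Measured against other epithelial genes, Cldn2 and Cldn15 still fell over both knockouts and 2 of the 4 sealing claudins, Cldn4 and Cldn8, still rose. The mean level of the 8 epithelial genes was 6.75 in ATF6aKO DSS, against 6.40 in ATF6aKO UT, and 6.69 in ATF6bKO DSS, against 6.44 in ATF6bKO UT. Over both knockouts 5 of the 8 rose, Cdh17 by 0.54 and Krt19 by 0.48, and 0 fell, where 13.3% of all genes rose and 15.8% fell. Relative to their mean, the pooled differences were -5.86 for Cldn2 (SE 0.43, adjusted p = 0.000518), -2.26 for Cldn15 (SE 0.16, adjusted p = 0.000499), 1.05 for Cldn8 (SE 0.16, adjusted p = 0.00274) and 0.73 for Cldn4 (SE 0.21, adjusted p = 0.0246). The other sealing claudins did not pass the test, Cldn3 at -0.14 (adjusted p = 0.232) and Cldn1 at 0.08 (adjusted p = 0.852). On this scale Cldn12 (-0.30, adjusted p = 0.0432) and Cldn23 (-0.45, adjusted p = 0.0265) were lower as well. The median of all genes on this scale was -0.31. In ATF6bKO alone the calls of Cldn4 (0.94, adjusted p = 0.0629) and Cldn8 (0.74, adjusted p = 0.0980) were lost on it, so that 0 sealing claudins passed there.

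**Figure D4:**
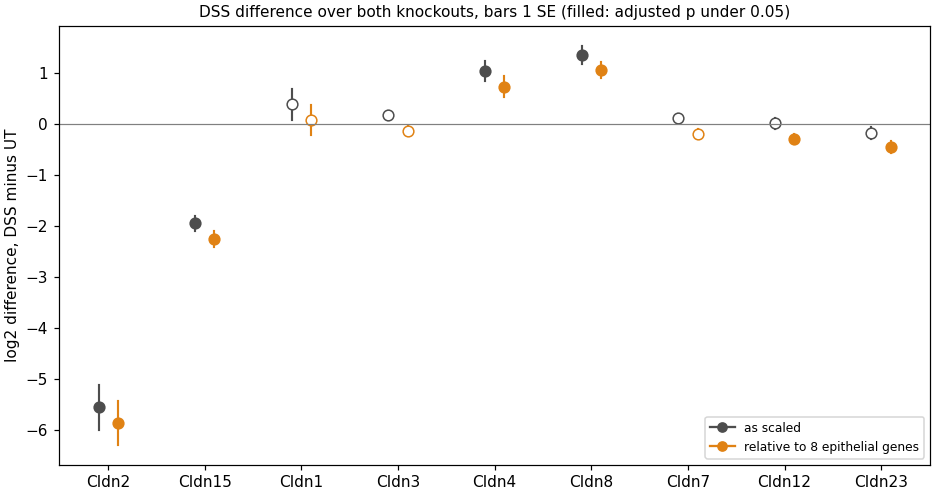
Difference between knockout DSS and knockout UT arrays (vertical axis, log2) of each claudin (horizontal axis), as scaled to the array and relative to the mean of 8 epithelial genes; bars are 1 SE and filled points have adjusted p under 0.05. The relative differences lie below the others for all 9 claudins, at -5.86 for Cldn2 and 1.05 for Cldn8.

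Genes of the crypt base fell with the pore-forming claudins. Of all genes, 13.3% were higher and 15.8% lower over both knockouts, and 14.7% were higher and 17% lower in WT titled DSS. Of 15 tested genes of the crypt base and of Wnt signalling, which maintains crypt stem cells, 11 fell over both knockouts, 1 rose and the median difference was -0.88. Lgr5, the receptor that marks crypt stem cells, fell by 4.40 (adjusted p = 0.000249), Axin2, a feedback inhibitor of Wnt signalling, by 3.43 (0.000249), Ephb3 by 1.77 (0.000705) and Slc12a2, a chloride uptake transporter of secreting crypt cells, by 1.44 (0.00131). Lgr5 was above background on only 2 of the 4 knockout DSS arrays, so the size of its fall is uncertain. Over the alternatives the Lgr5 difference was between -4.70 and -1.78 and the Axin2 difference between -3.74 and -1.71. Nkd1 rose by 0.45 (0.0231), a call lost in 6 of 17 alternatives. The mean level of the list was -0.65 and -0.59 on the ATF6aKO DSS arrays, against 0.47 and 0.45 on the UT arrays, and -0.72 and -0.58 on the ATF6bKO DSS arrays, against 0.61 and 0.46 on the UT arrays. On the WT arrays it was -0.52 and -0.28 with the DSS title, against 0.13 and 0.08 with the UT title, and 5 of the 15 genes were lower and 2 higher in titled DSS. Of 16 surface colonocyte genes, 1 rose (Atp12a, 0.83, a call lost in 5 of 17 alternatives) and 3 fell (Scnn1g and Scnn1b, subunits of the sodium channel ENaC, at -2.35 and -1.64, and the water channel Aqp8 at -0.99), with a median of 0.02. The Scnn1g call was lost without ATF6bKO DSS replicate 1 (adjusted p = 0.0521) or ATF6aKO DSS replicate 1 (0.0513). In WT 5 of the 16 surface genes were higher and 1 was lower in titled DSS. The share of surface genes called was near that of all genes, which was 29.1% over both knockouts and 31.7% in WT. Whether the crypt genes had a part in the fall of Cldn2 and Cldn15 was not tested.

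Inflammatory genes rose with DSS in the knockouts. Of all genes, 13.3% were higher over both knockouts, and 14.7% were higher and 17% lower in WT titled DSS. All 11 neutrophil markers tested were higher over both knockouts, with a median difference of 2.33, led by S100a8 (6.29) and S100a9 (5.96), which encode a calcium-binding protein pair of neutrophils. The mean level of the list was -2.33 and -2.94 on the ATF6aKO DSS arrays and -1.03 and -1.23 on the ATF6bKO DSS arrays, against -5.58 to -4.75 on the 4 knockout UT arrays. On the WT arrays it was -3.85 and -4.83 with the DSS title, against -5.03 and -5.31 with the UT title. Of 10 cytokines known to change claudin expression, 8 rose over both knockouts, among them Il6 (3.75), Tnf (3.22), Il22 (at least 3.77-fold) and Ifng (at least 4.76-fold), and 4 were higher and 1 lower in WT titled DSS. On the knockout UT arrays 5 to 8 of the 11 neutrophil markers were above background, against 11 on each knockout DSS array. For the 10 cytokines it was 5 to 7, against 9 or 10. Genes can pass the filter only through a DSS group, so both counts of genes that rose can be set in part by the filter. Endothelial markers rose as well, 10 of 12, with mean levels of 0.50 to 0.70 on the knockout DSS arrays, against -0.06 to 0.06 on the knockout UT arrays, with Cldn5, the claudin of blood vessels, at 0.86 (adjusted p = 0.00734). The part of immune and vessel cells in the claudin differences was not tested.

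**Figure D5:**
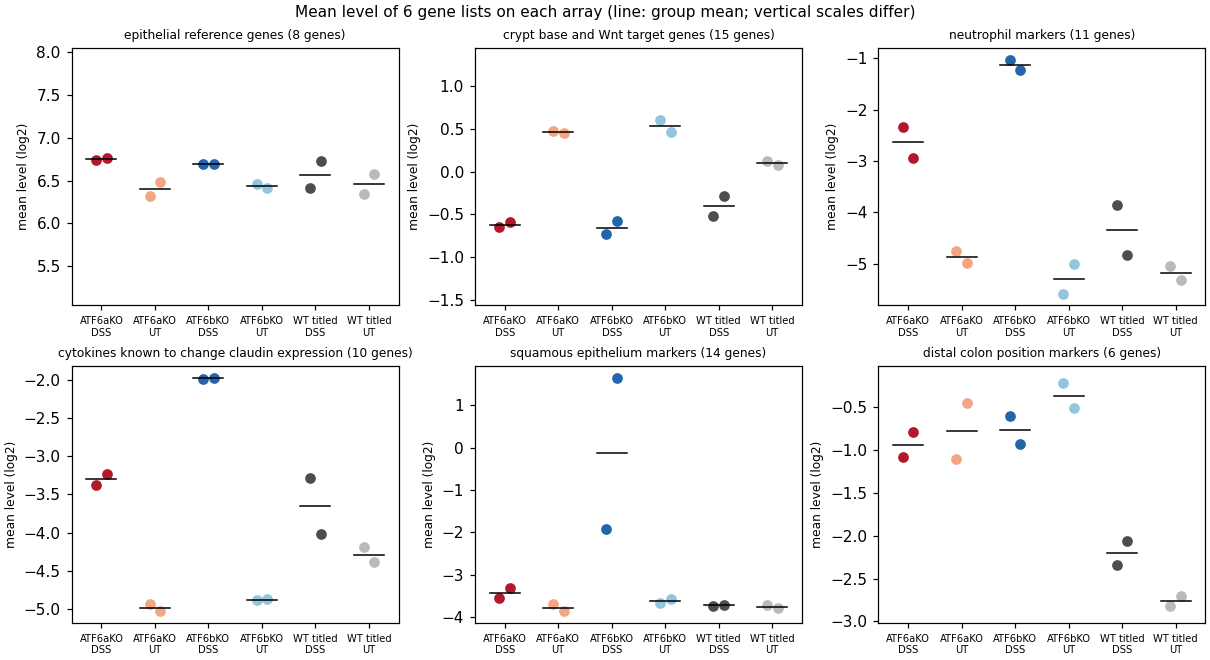
Mean level (vertical axis, log2) of 6 gene lists on each array, by group (horizontal axis); lines are group means. Neutrophil markers lie highest on the ATF6bKO DSS arrays (-1.03 and -1.23), squamous markers reach 1.66 on ATF6bKO DSS replicate 2, and distal colon markers lie between -2.82 and -2.06 on the WT arrays, below every knockout array.

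Markers of squamous epithelium, which lines the anus, stood apart in 1 group. Their mean level was -1.92 and 1.66 on the ATF6bKO DSS arrays and between -3.86 and -3.32 on the other 10 arrays. All 14 tested genes were above background on the ATF6bKO DSS arrays, against 9 to 11 on the others. A gene was tested if both arrays of any 1 group were above background, so this count can be set in part by the filter. Cldn4 and Cldn1 are expressed by squamous epithelium too. On ATF6bKO DSS replicate 2, the array with the most squamous signal, Cldn1 was -5.08, against -6.60 on replicate 1, while Cldn4 was -0.65, against -0.51 on replicate 1. Without replicate 2 the pooled Cldn4 difference was 1.03, and without replicate 1 it was 0.97. Each of these fits keeps the other replicate, which also had more squamous signal than the other groups. The part of squamous tissue in the Cldn1 and Cldn4 differences was not tested. Markers of distal colon position, mostly Hox genes, also differed by genotype. Their mean levels were between -1.10 and -0.22 on the 8 knockout arrays and between -2.82 and -2.06 on the 4 WT arrays. Of 6 tested, 4 were higher and 1 lower in ATF6aKO than in WT, where 50.4% of all genes were called. In ATF6bKO 5 were higher and 0 lower, where 50.6% of all genes were called. The part of the sampled position in the genotype differences of the claudins was not tested.

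Of 22 other tight junction genes tested, 3 rose over both knockouts and 4 fell, a share near the 29.1% of all genes called in this comparison, with a median difference of 0.07. In WT titled DSS 8 of the 22 were higher than in titled UT and 0 were lower, with a median of 0.50, where 31.7% of all genes were called. Those that rose were Ildr1, a protein of junctions where 3 cells meet (0.67, adjusted p = 0.0225), Pard6b, a polarity protein (0.62, adjusted p = 0.00684), and Cgnl1 (0.34, adjusted p = 0.0438). Those that fell were Prkci, a polarity kinase (-0.57, adjusted p = 0.0384), Marveld2, which is tricellulin (-0.52, adjusted p = 0.0189), Ocln, which is occludin (-0.50, adjusted p = 0.0249), and Lsr (-0.44, adjusted p = 0.0137). Pard6b and Lsr kept their calls in every alternative. The others lost it in between 2 and 12 of 17 alternatives, and Ocln fell by 0.15 where the probes of a gene were averaged (adjusted p = 0.495).

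Transcription factors known to act on claudin promoters fell or did not pass the test over both knockouts. Of 15 tested, 6 fell and 0 rose, with a median of -0.38, where 15.8% of all genes fell and 13.3% rose. Grhl2, a factor of epithelial identity known to act on Cldn4, fell by 1.15 (adjusted p = 0.00161). Vdr, the vitamin D receptor, known to act on Cldn2, fell by 1.004 (adjusted p = 0.00868), and Gata6 by 0.62 (adjusted p = 0.00517). In WT 0 of the 15 were lower and 3 were higher in titled DSS, where 17% of all genes were lower and 14.7% higher. The part of these factors in the claudin differences was not tested.

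Outside the epithelial set the array measured 15 other claudins, of which 9 could be tested. Over both knockouts only Cldn5 was called among these 9, where 29.1% of all genes were called. Cldn10, which forms ion-selective pores in kidney, was higher in ATF6aKO than in WT by 1.81 (SE 0.23, adjusted p = 0.000572) and in ATF6bKO than in WT by 1.74 (SE 0.23, adjusted p = 0.000609). Cldn11 was lower than in WT in ATF6aKO (-0.66, adjusted p = 0.0241) and in ATF6bKO (-0.83, adjusted p = 0.00921). These genotype differences share the WT arrays and cannot be told apart from the slide or the design version.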

How the data were processed

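Colon RNA of 12 samples was measured on single-dye Agilent arrays. The deposited scanner files hold an intensity per spot, the processed signal, which the authors obtained with Agilent Feature Extraction 10.7.1.1, per the submitters' processing notes, and which was not scaled between arrays. The authors' deposited value table holds log2 values of the same arrays. Since 41267 of 41268 probes there average 0 (tolerance 0.001), it is centred per probe, with column medians of -0.47 to 0.24 and unknown scaling between arrays. In 8 of its 12 columns the values matched the array of another sample (r between 0.959 and 0.998 over all 12): the WT columns matched arrays of the opposite title, and the ATF6aKO columns the other replicate. It served as an alternative, with columns assigned by that match and the scanner files taken as labelled.

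Control and outlier spots (54 to 108 per array) were left out. The log2 processed signal minus the log2 75th percentile of each array (246 to 1186 intensity units) is the level. Of 41174 probes, 30428 were well above background on both arrays of at least 1 group. Each gene was represented by its probe with the highest mean level. RefSeq (GRCm38.p6) accessions named 25193 probes (61.2%). Each claudin had 1 probe, except Cldn1 with 2, of which 1 passed the filter. Differences were tested with limma 3.58.1 in R 4.3.3 (lmFit and eBayes) on 6 group means of all 12 arrays, or, for both knockouts together, on their 8 arrays with a genotype term. P-values were adjusted by Benjamini-Hochberg over 23240 genes, with a threshold of 0.05, so arrays outside a comparison enter its error. A bound "at least N-fold" sets the brighter mean against the lowest signal well above background. On simulated data with 2 arrays per group, 39 of 40 genes changed by -4 (log2), 30 of 40 changed by -2, 9 of 40 changed by -1, 4 of 40 changed by 1 and 34 of 40 changed by 2 were called in the ATF6aKO comparison of 23204 genes.

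Alternatives were another background correction (normexp with an offset of 50, on median signals and local background, since the files hold no mean signal), quantile and median scaling, no or a stricter filter, other designs, the value table, the epithelial genes as scale, exchanged WT groups, and each array left out. Splits of the genotype comparisons by treatment, and the fit of each knockout's response on the 8 knockout arrays, were added after the data were seen. The members and gene lists were chosen with earlier results of these data known. Named were all 9 claudins, the targeted genes, other claudins, the 3 genes of highest Pearson's r with each member, and up to 4 genes each way per list. One gene that this rule names is not reported here. Replicate numbers did not pair the samples (r of replicate differences between -0.02 and 0.07).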

Additional observations from a re-analysis of the deposited data

Results flagged for a closer look

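Cldn2, the pore-forming claudin of the crypt, was picked out because its difference between DSS and UT was not the same in the knockouts as between the WT groups. The ATF6aKO response minus the titled WT difference was -4.18 (SE 0.86, limma adjusted p = 0.0301), and the ATF6bKO response minus the titled WT difference was -4.20 (SE 0.86, adjusted p = 0.0202). Cldn2 fell on both DSS arrays of each knockout relative to both UT arrays, and it lay lower on both titled DSS arrays of WT than on both titled UT arrays. The 2 comparisons share the WT arrays. The titles and treatment fields of the WT samples name opposite treatments, and with the WT groups exchanged Cldn2 differed by -6.92 for ATF6aKO (adjusted p = 0.00187) and -6.94 for ATF6bKO (adjusted p = 0.00137), in the same direction. Each genotype has its own slide by scan date, and WT has another design version than the knockouts, so genotype cannot be told apart from these.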

How the results depend on the processing

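The calls of Cldn2 and Cldn15 in both knockouts, and of Cldn2, Cldn15, Cldn4 and Cldn8 over both knockouts, were kept under every alternative run. Over all 90 member values, 21 of them called, leaving out 1 array gave 1039 values, of which 27 lost and 25 gained a call and 0 turned round. The other settings gave 1025 values, of which 22 lost and 34 gained a call and 7 turned round. A value turned round if its sign changed and it was called in the main fit, the alternative or both. Further values changed sign without a call in either fit, both with an array left out and under other settings. Such changes are not in the counts of values that turned round.

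The number of members called moved by over 1.5 times as follows, and the cause was not tested unless the setting itself removes samples or genes. With normexp it was 4 for WT, 2 for each knockout response against WT, 6 for ATF6bKO against WT and 3 between the knockouts. With quantile scaling it was 2 for the ATF6bKO response against WT and 5 for ATF6bKO against WT, and with median scaling 1 for WT and 2 for the ATF6bKO response. With no filter it was 2 for ATF6bKO, 1 for WT and 0 for the ATF6aKO response, and with the stricter filter 2 for each response. With only the arrays compared it was 2 for ATF6bKO, 0 for WT, 0 for the ATF6aKO response and 1 between the knockouts. The value table gave 8 for ATF6aKO and 5 for ATF6bKO against WT, epithelial genes as scale gave 2 for ATF6bKO (and 6 over both knockouts, against 4), and exchanged WT groups gave 3 and 4 for the ATF6aKO and ATF6bKO responses. An additive treatment term gave 1 for ATF6bKO (and 2 for ATF6aKO, against 3) against WT and 1 between the knockouts. UT groups alone, by the titles, gave 0 for ATF6aKO and 1 for ATF6bKO against WT, and DSS groups alone 3 and 4. Leaving out 1 array gave 2 to 3 for ATF6aKO, 2 to 4 for ATF6bKO, 4 to 5 over both knockouts, 1 to 3 for WT, 0 to 3 and 0 to 2 for the responses of ATF6aKO and ATF6bKO, 2 to 5 for each knockout against WT and 0 to 2 between the knockouts.

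The pore-forming against sealing index was -3.72 in ATF6aKO and -3.37 in ATF6bKO with normexp, -2.84 and -2.53 without Cldn2, -6.33 and -6.25 without Cldn15, and -5.22 to -3.95 in ATF6aKO with 1 array left out. Values that turned round were Cldn1 between the knockouts with normexp (-0.50), Cldn3 for ATF6aKO (0.55) and Cldn4 for ATF6bKO (0.63) against WT in the value table, Cldn12 over both knockouts relative to epithelial genes (-0.30), and with exchanged WT groups Cldn15 (1.38) and Cldn3 (-0.87) in WT and Cldn3 for the ATF6bKO response (1.08). Only Cldn15 and Cldn3 in WT were called in the main fit, and the others were called only in the alternative.

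Of all genes, 6765 were called over both knockouts, 3857 without ATF6aKO DSS replicate 1 and 10820 relative to the epithelial genes. The count was 1472 in ATF6aKO (183 without ATF6aKO DSS replicate 1, 3455 without WT UT replicate 1), 2994 in ATF6bKO (1096 without ATF6bKO DSS replicate 2, 5288 without WT UT replicate 1) and 7376 in WT (637 with only the WT arrays). It was 1777 for the ATF6aKO response against WT (0 without ATF6aKO UT replicate 2, 7621 without WT UT replicate 2), 3399 for that of ATF6bKO (749 without ATF6bKO DSS replicate 2, 8978 without WT UT replicate 2) and 1250 between the knockouts (136 to 9979). Against WT it was 11702 for ATF6aKO (at least 5321) and 11760 for ATF6bKO (at least 6188), and 0 to 83 between the responses of the knockouts. Normexp moved the share of higher calls over both knockouts to 58.7% from 45.6% (median of all genes 0.11 from -0.01), in ATF6bKO to 54.4% from 44.3%, for ATF6aKO against WT to 60.3% from 42.8% and for ATF6bKO against WT to 73.5% from 48.2%, and median scaling moved it in ATF6aKO to 29.5% from 45.5%, for the ATF6bKO response to 54.6% from 43.0% and between the knockouts to 41.5% from 21.7%. It was 86.6% and 89.7% for ATF6aKO and ATF6bKO against WT in the value table, and 12.7% over both knockouts relative to the epithelial genes. With the replicate number as a block, Cldn4 over both knockouts was 1.03 (adjusted p = 0.0177) and 5809 genes were called, and no member call changed. Levels near background, as of Cldn1, limit what can be seen.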
